A study of Mus musculus with 8 samples.

Results

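The urea cycle turns the ammonia released by amino acid breakdown into urea, and in the liver it runs in the hepatocytes around the portal vein. The 9 genes described here were taken by symbol: Cps1, Ass1, Asl, Arg1, Otc, Nags, Hal, Sds and Gls2. All 9 were found among the 56691 genes of the deposited table. The first 6 encode the cycle's enzymes and the synthase of its activator. The other 3 encode periportal enzymes that release ammonia from histidine, serine and glutamine.

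The livers came from wild-type C57BL/6J mice given HFD-CDAA, a diet rich in fat, free of choline and with defined amino acids that serves as a model of metabolic dysfunction-associated steatohepatitis, for 4 weeks. The mice were 6 weeks old at the start. In 4 libraries the mice had received the plasmid plive-Tet1, meant to raise the DNA demethylase Tet1 in hepatocytes, and in 4 the control plasmid plive-Con. Both were given by hydrodynamic tail vein injection, a rapid large-volume injection after which liver cells take up the DNA, and all mice were killed after a short fast. Nothing in the labels says whether every library came from its own mouse. The p-values therefore describe the spread among libraries, each called a liver for short. No source used here gives the promoter of the plasmid or the share of hepatocytes that took it up. Groups follow the sample titles, although the treatment field of plive-Tet1 2, 3 and 4 names Tet2, Tet3 and Tet4.

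Library totals ranged from 15885113 to 19850800 counts, of which the 9 genes took between 0.408% and 0.733%. For Tet1 itself, plive-Tet1 livers 1 to 4 held 9, 8, 12 and 5 counts, against 1, 9, 6 and 5 counts in plive-Con livers 1 to 4. The groups overlapped, and a higher Tet1 level with the plasmid was not detectable at this depth. The hepatocyte product albumin (Alb) stood between 19043 and 28118 FPKM (read counts scaled by exon length and library total) in all 8 livers. In these bulk samples, fewer cells of a type and less RNA per cell cannot be told apart.

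Ammonia enters the cycle in mitochondria, where Cps1 joins it with bicarbonate to carbamoyl phosphate. Nags makes N-acetylglutamate, which Cps1 needs to be active, and Otc joins carbamoyl phosphate with ornithine to citrulline. In the cytosol Ass1 adds aspartate to citrulline, Asl splits the product into arginine and fumarate, and Arg1 releases urea and regenerates ornithine. Hal, Sds and Gls2 catalyse the entry steps of histidine, serine and glutamine breakdown. In rodents, glucagon, glucocorticoids, fasting and dietary protein are known to raise several of these genes.

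Per length, Ass1 was the most abundant of the 9, with 766 ± 135 FPKM over all livers (SD, n = 8), and its lowest liver lay above the highest liver of every other member. Arg1 followed with 351 ± 104 FPKM and Cps1 with 342 ± 91.4 FPKM, and these neighbours did not separate, Arg1 being the higher in 5 of 8 livers. Sds (79.3 ± 24.5 FPKM), Asl (65.2 ± 23.8 FPKM), Otc (54.7 ± 12.4 FPKM) and Gls2 (53.7 ± 11.2 FPKM) formed a middle range in which the ranges of neighbouring members overlapped. Within it, Sds was above Asl in all 8 livers. Hal, at 37.3 ± 8.22 FPKM, was below Gls2 in all 8 livers, although their ranges overlapped, and Nags was the lowest of the members in every liver, at 15.3 ± 1.77 FPKM.

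Setting plive-Tet1 livers against plive-Con livers asked whether these genes respond to the Tet1 plasmid in mice fed HFD-CDAA. None passed the test, and the groups overlapped for all 9 genes. Of all 14533 tested genes 2.56% had groups without overlap in FPKM, and 0 of 9 is near that share. The quasi-likelihood test of edgeR, with Benjamini-Hochberg adjustment, called 0 of the 9 members and 0.0% of all tested genes at an adjusted p of 0.05. At an unadjusted p under 0.05 it reached 0 of the 9 members and 4.07% of all tested genes. DESeq2 called 0 members and 0.0757% of all tested genes, and limma voom 0 members and 0.0% of all tested genes. At an unadjusted p under 0.05 DESeq2 reached 0 members and 3.98% of all tested genes, and limma voom 0 members and 3.81%. By edgeR, 2 members were under an unadjusted p of 0.05 without plive-Con 2, where 4.82% of all tested genes were, and 1 member with no filter on low counts, where 5.46% were and 0.469% were called. Fold changes are given as plive-Tet1 livers over plive-Con livers. All 9 members had a lower value in plive-Tet1 livers, as did 48.0% of all tested genes, and 8 of 9 with limma on log2(FPKM + 0.5). The median log2 fold change of the members was -0.17, against 0.01 over all tested genes, and the members' median was -0.05 without plive-Con 4.

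**Figure D1:**
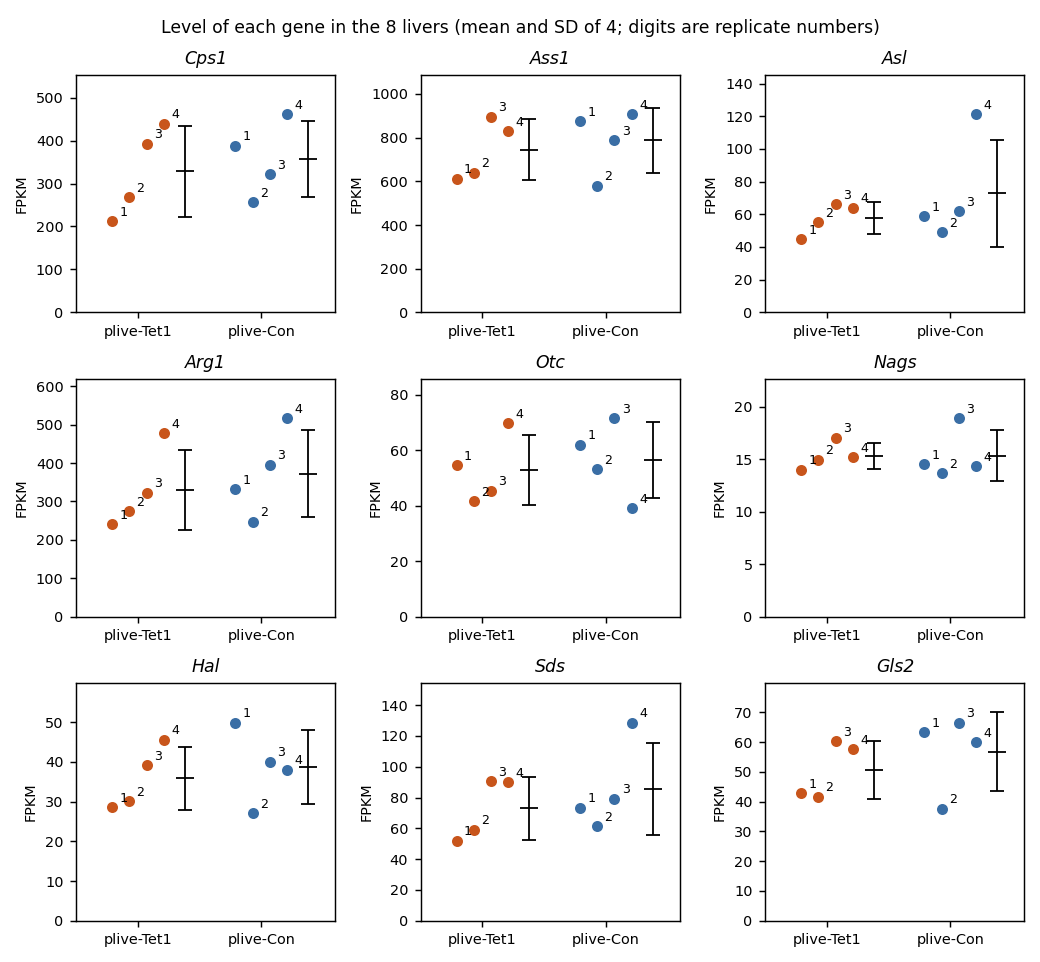
FPKM of the 9 genes (y axes, from 0) in each plive-Tet1 liver (left, orange) and plive-Con liver (right, blue); digits are replicate numbers, and the black bar and whiskers are the mean and SD of 4 livers. The groups overlap in all 9 panels, and Asl reaches 121 FPKM in plive-Con 4.

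Cps1 (ENSMUSG00000025991, GRCm39 chromosome 1, 67162185 to 67270418, plus strand) measured 212, 267, 393 and 440 FPKM in plive-Tet1 livers 1 to 4 and 388, 257, 322 and 461 FPKM in plive-Con livers 1 to 4. Each group thus held livers near the bottom and near the top of a 2.17-fold range. The log2 fold change was -0.17 ± 0.25 (SE), with a 95% interval from -0.71 to 0.37. With each liver left out in turn, the value for Cps1 ran from -0.36 without plive-Tet1 4 to -0.0088 without plive-Tet1 1. Otc (ENSMUSG00000031173, chromosome X, 10118544 to 10187263, plus strand), whose product works beside Cps1 in the mitochondrion, measured 54.6, 41.7, 45.5 and 69.8 FPKM in plive-Tet1 livers and 62.0, 53.2, 71.5 and 39.0 FPKM in plive-Con livers. Its lowest liver in FPKM was plive-Con 4, the liver in which Cps1 was highest, and the log2 fold change of Otc was -0.14 ± 0.21. That value was -0.32 without plive-Tet1 4 and -0.00013 without plive-Con 3. The ratio of Cps1 to Otc FPKM spread from 3.89 in plive-Tet1 1 to 11.8 in plive-Con 4. It averaged 6.31 ± 1.94 in plive-Tet1 livers and 6.85 ± 3.4 in plive-Con livers (SD, n = 4 each), and the groups overlapped.

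Nags (ENSMUSG00000048217, chromosome 11, 102036339 to 102040303, plus strand), the activator's synthase, measured 14, 14.9, 17.0 and 15.2 FPKM in plive-Tet1 livers and 14.5, 13.7, 18.9 and 14.3 FPKM in plive-Con livers. It was the least variable member, with its highest liver 1.38-fold above its lowest. The log2 fold change was -0.06 ± 0.14, with a 95% interval from -0.37 to 0.25, and its sign was positive without plive-Con 3 and with limma on log2(FPKM + 0.5). No source used here gives the strand setting of the counting, and the antisense gene Gm11586, which overlaps Nags, collected 60 counts over all libraries.

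Ass1 (ENSMUSG00000076441, chromosome 2, 31360219 to 31410684, plus strand) measured 613, 640, 896 and 830 FPKM in plive-Tet1 livers and 875, 579, 788 and 908 FPKM in plive-Con livers. Again 1 group's livers fell on both sides of the other's, and the fold of plive-Tet1 over plive-Con was 0.912, with a 95% interval from 0.681 to 1.22. Some reads of Ass1 cannot be assigned with certainty, because a near-identical copy exists. The transcript of Gm5424, a processed pseudogene on chromosome 10, aligned to the Ass1 transcript over 1240 bases at 99.5% identity, and Gm5424 collected from 13.4% to 15.8% as many counts as Ass1 in each liver. With the counts of both genes summed, the log2 fold change of Ass1 was -0.13, as it was for Ass1 alone. The value for Ass1 ran from -0.28 without plive-Con 2 to -0.05 without plive-Con 4.

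Asl (ENSMUSG00000025533, chromosome 5, 130040099 to 130058088, minus strand) had the lowest log2 fold change of the members, -0.40 ± 0.26, and this value rested on a single liver. It measured 44.6, 55.3, 66.2 and 64.0 FPKM in plive-Tet1 livers and 58.8, 49.1, 62.0 and 121 FPKM in plive-Con livers. Only plive-Con 4 lay outside the range of the plive-Tet1 livers on the high side, and without it the log2 fold change was -0.02. The ratio of Ass1 to Asl FPKM was 7.49 in plive-Con 4 and between 11.6 and 14.9 in the other livers. Arg1 (ENSMUSG00000019987, chromosome 10, 24791119 to 24803382, minus strand) measured 241, 274, 323 and 477 FPKM in plive-Tet1 livers and 332, 247, 395 and 516 FPKM in plive-Con livers. Its log2 fold change was -0.23 ± 0.26, and it ran from -0.49 without plive-Tet1 4 to -0.03 without plive-Con 4. Arg2, the mitochondrial arginase, was at 0.653 ± 0.302 FPKM in plive-Tet1 livers and 0.723 ± 0.232 FPKM in plive-Con livers (SD, n = 4 each), and Arg1 was from 265 to 1908 times as high in FPKM.

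Of the enzymes that feed ammonia into the cycle, Sds (ENSMUSG00000029597, chromosome 5, 120614591 to 120621997, plus strand), which converts serine to pyruvate, measured 52.0, 59.1, 90.7 and 90.0 FPKM in plive-Tet1 livers and 73.3, 61.2, 79.4 and 129 FPKM in plive-Con livers. The highest value was again that of plive-Con 4, and the log2 fold change of -0.28 ± 0.25 was -0.0063 without it and -0.44 without plive-Tet1 3. Plbd2, encoded on the other strand, overlaps Sds and shares 365 bases with its transcript. Its 13398 counts over all libraries were of the order of those of Sds, and reads of the overlap cannot be assigned with certainty. The paralog Sdsl stood at 7.55 ± 0.982 FPKM in plive-Tet1 livers and 8.47 ± 0.610 FPKM in plive-Con livers (SD, n = 4 each), with a log2 fold change of -0.21 ± 0.14.

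Hal (ENSMUSG00000020017, chromosome 10, 93324630 to 93355166, plus strand), which opens histidine breakdown, measured 28.6, 30.0, 39.1 and 45.6 FPKM in plive-Tet1 livers and 49.9, 27.0, 40.0 and 38.01 FPKM in plive-Con livers. Here plive-Con 1 and not plive-Con 4 was highest, and the log2 fold change was -0.16 ± 0.21. Without plive-Con 1 it was -0.02, without plive-Tet1 1 it was -0.07, and without plive-Con 2 it was -0.32. Gls2 (ENSMUSG00000044005, chromosome 10, 128030326 to 128045873, plus strand), the liver-type glutaminase, measured 42.8, 41.7, 60.3 and 57.6 FPKM in plive-Tet1 livers and 63.3, 37.6, 66.6 and 59.9 FPKM in plive-Con livers. Its log2 fold change was -0.22 ± 0.21, and it ran from -0.40 without plive-Con 2 to -0.14 without plive-Tet1 2. Gls2 is overlapped by Spryd4 on the other strand, with 4137 counts over all libraries, and by Gm52965 on the same strand, with 119 counts. The groups overlapped, and its lowest liver, plive-Con 2, lay in the same group as its highest, plive-Con 3.

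**Figure D2:**
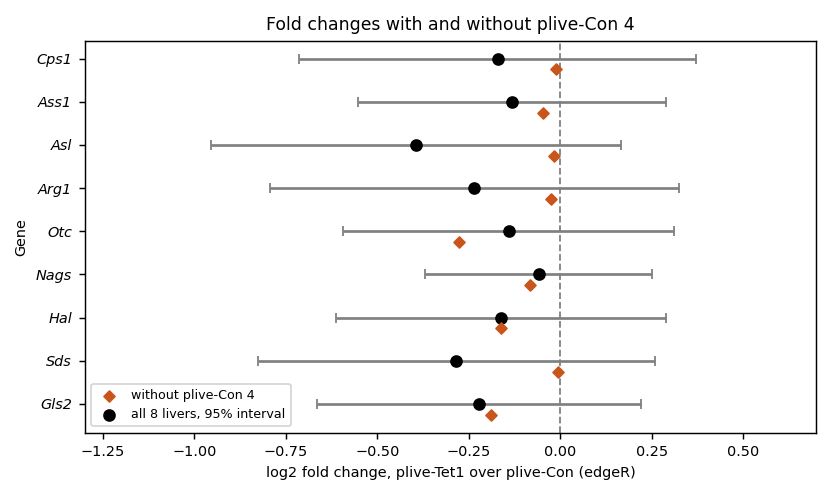
Log2 fold change of each gene, plive-Tet1 livers over plive-Con livers (x axis), from edgeR with all 8 livers (black, 95% interval) and without plive-Con 4 (orange diamonds). Every interval includes 0, and without plive-Con 4 the values of Cps1, Asl, Arg1 and Sds lie between -0.03 and -0.0063.

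The members varied more from liver to liver than between the groups, and 7 of them did so together. For Cps1, Ass1, Asl, Arg1, Hal, Sds and Gls2, the same 3 livers, plive-Tet1 1, plive-Tet1 2 and plive-Con 2, had the lowest FPKM of the 8. These 3 livers were the lowest for 1.25% of all tested genes. The set of livers was chosen after the values of these genes had been seen, so the count is a description without a test. On CPM, read counts scaled by library total and edgeR's TMM factor, 8 of the 9 members had these 3 livers at the bottom, against 2.71% of all tested genes. At the other end, plive-Con 4 was highest for 5 members (Cps1, Ass1, Asl, Arg1 and Sds), as it was for 13.7% of all tested genes. Otc did not follow the others: in FPKM plive-Con 4 was its lowest liver and plive-Con 3 its highest. On standardised log2 CPM its lowest liver was plive-Tet1 2, at -1.20 SD from its mean, with plive-Con 4 close to it at -1.13. Nags was also highest in plive-Con 3, with its other 7 values between 13.7 and 17.0 FPKM.

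**Figure D3:**
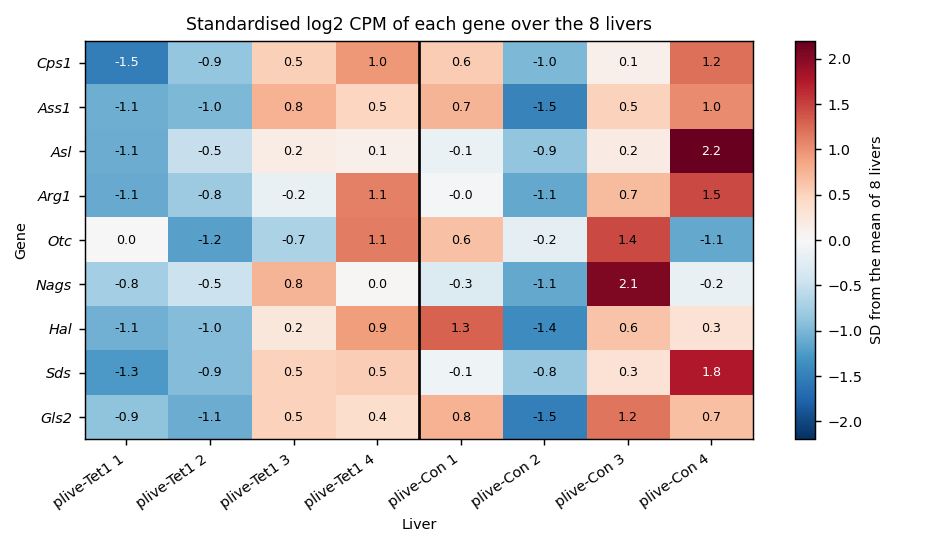
Standardised log2 CPM (colour, in SD from the mean over the 8 livers) of the 9 genes (rows) in the plive-Tet1 livers (left of the line) and plive-Con livers (right). Columns plive-Tet1 1, plive-Tet1 2 and plive-Con 2 are below the mean for every gene except Otc in plive-Tet1 1. Otc is at -1.1 in plive-Con 4, where Asl is at 2.2.

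The RefSeq promoter table matched 4 of the 9 members, 2 that followed the shared order of livers (Ass1 and Hal) and 2 that did not (Otc and Nags in FPKM), and these are shown so that their starts can be compared. The table is on GRCm38.p6, a build other than that of the counts. The sequences cover 250 bases before to 50 bases after the gene start, at chr2:31470020-31470319 (Ass1), chr10:93488518-93488817 (Hal), chrX:10252055-10252354 (Otc) and chr11:102145263-102145562 (Nags), all on the plus strand. Capitals mark matches, on either strand, to 7 motifs: TATAAA for the TATA box, CCAAT for the box of that name, GGGCGG for the GC box, TTGCNNAA for C/EBP factors, TGACG for the cAMP response half-site, TGTTCT for the glucocorticoid receptor half-site, and the HNF4 direct repeat, which is AGGTCA in 2 copies with 1 base between.
Ass1: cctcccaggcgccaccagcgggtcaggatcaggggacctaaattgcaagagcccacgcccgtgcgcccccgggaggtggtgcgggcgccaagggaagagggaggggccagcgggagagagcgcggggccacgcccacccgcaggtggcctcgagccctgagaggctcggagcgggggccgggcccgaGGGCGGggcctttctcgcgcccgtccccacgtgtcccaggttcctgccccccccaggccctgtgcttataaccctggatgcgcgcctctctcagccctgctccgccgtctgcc
Hal: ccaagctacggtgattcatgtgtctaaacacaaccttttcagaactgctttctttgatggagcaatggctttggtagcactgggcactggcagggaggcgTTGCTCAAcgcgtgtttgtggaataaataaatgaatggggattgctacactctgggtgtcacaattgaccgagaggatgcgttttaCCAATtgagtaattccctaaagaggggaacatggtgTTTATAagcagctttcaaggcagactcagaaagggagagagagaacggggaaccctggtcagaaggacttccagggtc
Otc: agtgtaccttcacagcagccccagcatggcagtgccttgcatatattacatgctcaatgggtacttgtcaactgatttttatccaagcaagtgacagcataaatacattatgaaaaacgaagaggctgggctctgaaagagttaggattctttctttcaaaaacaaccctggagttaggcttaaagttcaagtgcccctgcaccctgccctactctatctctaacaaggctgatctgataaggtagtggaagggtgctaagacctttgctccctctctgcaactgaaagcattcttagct
Nags: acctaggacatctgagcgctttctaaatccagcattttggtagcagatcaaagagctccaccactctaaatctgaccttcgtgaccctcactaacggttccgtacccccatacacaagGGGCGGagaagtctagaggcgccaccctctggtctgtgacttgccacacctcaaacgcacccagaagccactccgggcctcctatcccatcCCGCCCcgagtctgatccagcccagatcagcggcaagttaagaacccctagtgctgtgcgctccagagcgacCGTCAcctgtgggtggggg

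The motifs found differed between the 4 promoters. Ass1 held a GC box starting at -63 and Nags held GC boxes at -132 and -41, where 35.7% of all 32851 promoters held at least 1. Hal held a CCAAT box at -64 (37.4% of all promoters) and a C/EBP match at -150 (10.8%). Its match to the TATA motif at -28 read TTTATA and lay on the strand opposite to the gene. Matches to that motif on either strand were in 13.6% of all promoters. Nags held a cAMP response half-site at 32 (20.8%), and Otc held no match to any of the 7. The glucocorticoid receptor half-site, in 19% of all promoters, and the HNF4 repeat, in 0.0396%, were in none of the 4. No match overlapped another, positions are counted from the gene start, and a match is a description of letters and not of binding.

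The wider network of amino acid breakdown was taken from 5 lists, of which 97 genes besides the members were tested. Of these 97, 0 passed the edgeR test and 3 were at an unadjusted p under 0.05, against 0.0% and 4.07% of all tested genes. In plive-Tet1 livers 73 had a lower and 24 a higher value, where 48.0% of all tested genes had a lower value. The median log2 fold change of the 97 was -0.11, against 0.01 over all tested genes. The share of 48.0% also stands beside the counts of lower values in every list described below. With each liver left out in turn, the count of lower values ran from 10 to 15 for partners of the cycle. It ran from 12 to 15 for histidine, serine, threonine and glycine genes and from 15 to 16 for tyrosine, phenylalanine and tryptophan genes. For branched-chain, lysine and propionate genes it ran from 12 to 20, and for proline, methionine, cysteine and other genes from 13 to 18. The 3 livers named above were the lowest for 24 of the 97 genes, 24.7%, against 1.25% of all tested genes, in FPKM. On TMM-scaled CPM they were the lowest for 39 of the 97, 40.2%, against 2.71%.

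Among partners of the cycle, such as the ornithine and aspartate carriers and the aminotransferases, 15 of 18 tested genes had a lower value and 0 passed. The count of lower values was 9 with limma on log2(FPKM + 0.5). Gpt, alanine aminotransferase, measured 69.9 ± 12.2 FPKM in plive-Tet1 livers and 83.1 ± 11.6 FPKM in plive-Con livers (SD, n = 4 each), with a log2 fold change of -0.30 ± 0.16. Fh1, fumarate hydratase, had -0.28 ± 0.16, and Aldh18a1, of proline and ornithine synthesis, had 0.44 ± 0.23. The citrin carrier Slc25a13, the mitochondrial carbonic anhydrase Car5a, the aspartate aminotransferase Got1 and the malate dehydrogenase Mdh1 shared the 3 lowest livers with the members.

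Genes of histidine, serine, threonine and glycine catabolism had a lower value in 14 of 19, none of them past the threshold, and their median log2 fold change was -0.12. Gcat, of threonine breakdown, measured 9.17, 8.03, 8.23 and 9.32 FPKM in plive-Tet1 livers and 10.1, 10.6, 10.3 and 9.80 FPKM in plive-Con livers. Its groups did not overlap, which held for 2.56% of all tested genes, and its log2 fold change was -0.28 ± 0.12 at an edgeR adjusted p of 1.00. Shmt1, a serine hydroxymethyltransferase, had -0.29 ± 0.14, Amt of the glycine cleavage system 0.20 ± 0.15 and Agxt2 0.16 ± 0.13. Uroc1 and Ftcd, which act after Hal in histidine breakdown, had the same 3 lowest livers as Hal.

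Genes of tyrosine, phenylalanine and tryptophan catabolism had a lower value in 15 of 18, with 0 passing and a median log2 fold change of -0.16, close to that of the members. Fah, the last enzyme of tyrosine breakdown, measured 197 ± 15.2 FPKM in plive-Tet1 livers and 223 ± 8.11 FPKM in plive-Con livers (SD, n = 4 each), with a log2 fold change of -0.23 ± 0.13. Kyat3 had -0.33 ± 0.17, whereas Acmsd had 0.21 ± 0.16 and Kynu 0.20 ± 0.18, all in tryptophan breakdown. Kyat3 was at 27.0 FPKM in plive-Con 4 and between 15.1 and 17.1 FPKM in the other livers. With each liver left out in turn, its value ran from -0.43 to -0.10, that of Acmsd from 0.092 to 0.30 and that of Kynu from 0.051 to 0.30. The 3 shared livers were the lowest in FPKM for 7 of these 18 genes, among them Hpd and Hgd of tyrosine breakdown and the tryptophan dioxygenase Tdo2.

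Branched-chain amino acid, lysine and propionate genes had a lower value in 15 of 22, a median of -0.06 and 0 passing, with Mcee at -0.21 ± 0.12, Ppm1k at -0.37 ± 0.23, Aldh7a1 at 0.07 ± 0.16 and Pccb at 0.07 ± 0.15. Of the proline, methionine, cysteine and other genes, 14 of 20 had a lower value, with a median of -0.11 and 0 passing. Prodh2, hydroxyproline dehydrogenase, measured 41.8, 38.2, 48.6 and 40.2 FPKM in plive-Tet1 livers and 50.6, 50.7, 56.2 and 59.6 FPKM in plive-Con livers. The groups of Prodh2 did not overlap, and it had the smallest unadjusted p of the 97 genes, but its edgeR adjusted p was 1.00 at a log2 fold change of -0.41 ± 0.13. In the same list the asparaginase gene Aspg had -0.45 ± 0.19, Cbs of transsulfuration 0.29 ± 0.21 and Bhmt of methionine recycling 0.12 ± 0.20. The value of Cbs ran from 0.12 to 0.43 with each liver left out in turn.

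Of 16 regulators known to act on these genes, 0 passed, 11 had a lower value, and the count was 7 with library totals alone or without plive-Con 4. The glucagon receptor Gcgr had a log2 fold change of -0.21 ± 0.14, Cebpb -0.36 ± 0.25 and Creb1 0.26 ± 0.20. In none of the 16 were the 3 shared livers the lowest in FPKM, an order found in 1.25% of all tested genes. A list of 16 is too short to show fewer than that share. On TMM-scaled CPM the order held for 1 of the 16, against 2.71% of all tested genes.

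**Figure D4:**
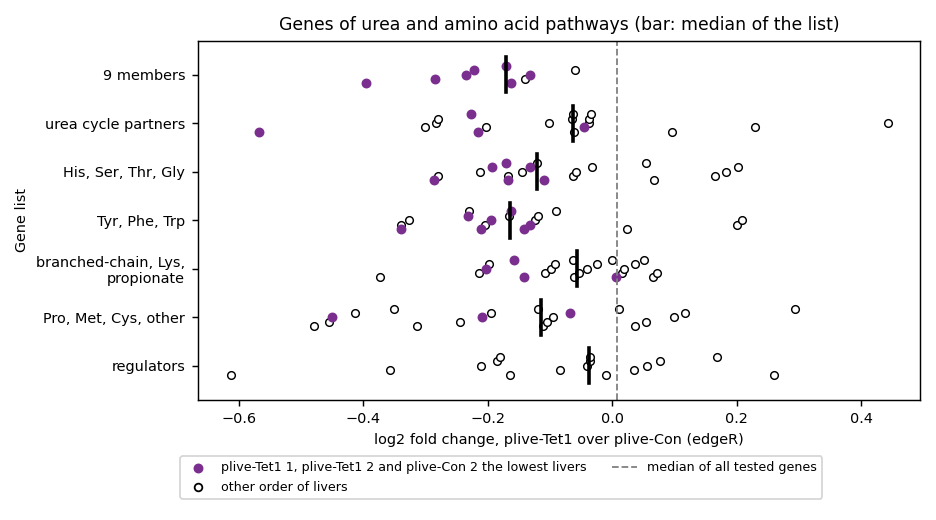
Log2 fold changes, plive-Tet1 livers over plive-Con livers (x axis), of the members and of 6 gene lists (rows); each point is a gene, the black bar is the median of the list, and filled points are genes whose lowest livers in FPKM were plive-Tet1 1, plive-Tet1 2 and plive-Con 2. The medians of the lists lie between -0.16 and -0.04. Filled points are 7 of 9 members and 0 of 16 regulators, where 1.25% of all tested genes have that order.

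Markers of the liver zones were compared with the members. Of 14 tested periportal markers, 12 had a lower value and 0 passed, with a median log2 fold change of -0.11. The adhesion gene Cdh1 had a higher value, at 25.95, 26.2, 24.9 and 22.0 FPKM in plive-Tet1 livers and 21.2, 19.8, 15.2 and 13.4 FPKM in plive-Con livers, without overlap between the groups and at an edgeR adjusted p of 1.00. Of 15 pericentral markers, 9 had a lower value and 0 passed, with a median of -0.04. In FPKM the 3 shared livers were the lowest for 3 periportal markers, Fbp1 and Hsd17b6 among them, and for 2 pericentral markers (Cyp2e1 and Slc1a2). That order held for 1.25% of all tested genes. Among 13 general hepatocyte markers this held for Serpina1b alone, and Alb was at 19043, 22067 and 22021 FPKM in plive-Tet1 1, plive-Tet1 2 and plive-Con 2.

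Some markers of bile duct cells were highest in the livers in which the members were lowest, 3 of the 8 tested (Spp1, Krt19 and Cftr). The summed FPKM of 9 cholangiocyte markers was 223, 130, 93.2 and 99.4 in plive-Tet1 livers and 98.9, 155, 58.2 and 88.6 in plive-Con livers, so that it was highest in plive-Tet1 1, plive-Con 2 and plive-Tet1 2. Most of that sum was Spp1, a secreted protein that other cells also make, with 203, 111, 77.3 and 87.3 FPKM in plive-Tet1 livers and 84.4, 135, 46.9 and 74.9 FPKM in plive-Con livers. Krt19 and Cftr stayed at or under 2.85 FPKM, and the 3 livers were the highest for 4.45% of all tested genes. The summed FPKM of 12 stellate cell and fibroblast markers was 180, 168, 154 and 151 in plive-Tet1 livers and 176, 199, 105 and 108 in plive-Con livers, with plive-Con 1 among the high livers. Mitochondrial genes took 6.43%, 3.56% and 8.63% of the counts in plive-Tet1 1, plive-Tet1 2 and plive-Con 2, and from 3.23% to 6.42% in the other 5 livers. The part of these differences in the order of the livers was not tested.

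**Figure D5:**
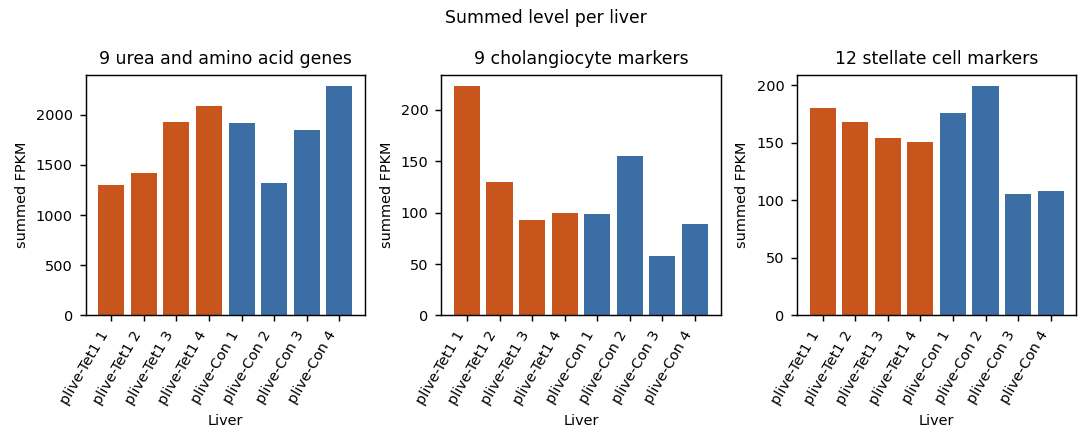
Summed FPKM per liver (y axes, from 0) of the 9 urea cycle and amino acid genes, of 9 cholangiocyte markers and of 12 stellate cell and fibroblast markers, in plive-Tet1 livers (orange) and plive-Con livers (blue). The 3 livers with the lowest sum of the 9 genes, between 1303 and 1424, have the highest sums of the cholangiocyte markers, between 130 and 223.

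Markers of the other cell types were read in the same way. For none of the tested markers of macrophages (15), stellate cells (12), endothelial cells (10), lymphoid cells (12), neutrophils (5) or red cells (5) were the 3 shared livers the lowest in FPKM. That order held for 1.25% of all tested genes, and each list is too short to show fewer. On TMM-scaled CPM it held for 1 endothelial marker and none of the others, against 2.71% of all tested genes. The 3 shared livers were the highest for Cd68, Acta2 and Cxcr2, 1 tested marker each of macrophages, stellate cells and neutrophils, against 4.45% of all tested genes. The same held for the hepatocyte marker Serpina1a, and for 0 of the endothelial, lymphoid and red cell markers. Macrophage markers summed to between 1453 and 1847 FPKM in plive-Tet1 livers and between 1133 and 1503 FPKM in plive-Con livers. Beside the counts that follow, 48.0% of all tested genes had a lower value. An unadjusted edgeR p under 0.05 was reached by 4.07% of all tested genes, and by 2.16% with a lower value. Of the macrophage markers, 7 of 15 had a lower value. At an unadjusted edgeR p under 0.05, Clec4f was lower, and Lyz2, Trem2 and Gpnmb were higher. Lymphoid markers summed to between 17.2 and 39.5 FPKM in plive-Tet1 livers and between 17.2 and 97.3 FPKM in plive-Con livers, with a lower value for 11 of 12 (9 of them at an unadjusted p under 0.05). Much of that sum was Igkc, which ranged from 9.19 to 30.7 FPKM in plive-Tet1 livers and from 10.9 to 81.5 FPKM in plive-Con livers. Red cell markers summed to between 204 and 332 FPKM in plive-Tet1 livers and between 277 and 505 FPKM in plive-Con livers, with a lower value for 4 of 5 (all 4 at an unadjusted p under 0.05). These sums overlapped between the groups. Endothelial markers summed to between 61.5 and 79.1 FPKM in plive-Tet1 livers and between 66.7 and 97.2 FPKM in plive-Con livers, with a lower value for 9 of 10 (3 of them at an unadjusted p under 0.05) and a median log2 fold change of -0.27. Neutrophil markers summed to between 16.3 and 52.6 FPKM in plive-Tet1 livers and between 17.8 and 44.0 FPKM in plive-Con livers, with a lower value for 4 of 5 and none at an unadjusted p under 0.05. None of these markers passed the adjusted threshold, and their part in the members' values was not tested. The neutrophil markers Ly6g, Mpo and Elane and the red cell marker Slc4a1 had too few counts to be tested.

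Among the genes outside the members whose log2 CPM followed the members' mean standardised value most closely over the 8 livers were Slc2a2, Gm15883, Aass and Hgd. As a measure of likeness, Pearson's r was between 0.964 and 0.971 for these 4 and describes livers that fall apart into 3 low and 5 higher ones. All 4 had the same 3 lowest livers as the members, an order that picking genes by this r favours. Slc2a2, the hepatocyte glucose transporter, measured 39.0, 46.3, 55.3 and 59.6 FPKM in plive-Tet1 livers and 52.0, 43.0, 61.5 and 63.1 FPKM in plive-Con livers. Aass begins lysine breakdown and Hgd acts in tyrosine breakdown. Gm15883 was at most at 3.03 FPKM.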

How the data were processed

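Total RNA of 8 mouse livers was sequenced in paired reads, per the labels' protocols. The submitters' processing notes list cutadapt 1.9.1, HISAT2 2.2.1, HTSeq 0.6.1 and GRCm39; no source used here gives the annotation release, the strand setting or the mode of counting. The deposited table holds raw read counts and FPKM per gene, per the file headers. The deposited FPKM equalled the count scaled by exon length and library total to within 0.00500.

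Genes kept by edgeR's filterByExpr (14533) were scaled by TMM and tested with edgeR's quasi-likelihood test on the counts, group as the only term, two-sided, with Benjamini-Hochberg adjustment across every tested gene (R 4.3.3, edgeR 4.0.16, limma 3.58.1, DESeq2 1.42.0). The test was checked on simulated data. The quasi-likelihood statistic gave each SE and 95% interval. For each member an exact permutation test over 70 assignments of livers, on log2(FPKM + 0.5), gave p from 0.514 to 1.00, where the smallest possible is 0.0286. Near-identical copies were sought with blastn 2.17.0 among GENCODE M21 transcripts, at 95% identity over at least 300 bases.

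The members and all gene lists were chosen with earlier results of these data known. Of each pathway list, the genes named are the 2 with the smallest p in each direction, the paralogs Arg2 and Sdsl, and the genes most alike by the rule of the 5 highest r. A few genes that these rules name are not reported here. Other genes, such as Cdh1 and those sharing the 3 lowest livers, were picked with their values in view. Same-numbered livers did not deviate together (correlations from -0.04 to 0.07). Alternatives covered scaling, filters, other tests, a replicate block and each library left out; ranks on TMM-scaled CPM and summed Ass1 and Gm5424 counts were added after seeing the data.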

Additional observations from a re-analysis of the deposited data

Results flagged for a closer look

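In groups of 4 livers, 3 values stood apart from the other 3 of their group by Dixon's criterion, among 66 groups examined; chance alone flags about 1 in 20. Nags was at 18.9 FPKM in plive-Con 3. In plive-Con 4, Kyat3 was at 27.0 FPKM, above its group, and Agxt2 at 45.3 FPKM, below it. Asl in plive-Con 4, at 121 FPKM, had a gap of 0.821 of its group's range, just under the critical value.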

How the results depend on the processing

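With 4 livers a group, the lowest lower end of the members' 95% fold intervals was 0.516 (Asl) and the highest upper end 1.29 (Cps1). Each gene has its own interval, which for Nags ran from 0.774 to 1.19. Changes inside a member's own interval were not excluded here. No member was called under any alternative run. All 9 kept the lower value except Nags, whose log2 fold change was 0.0025 with limma on log2(FPKM + 0.5), 0.0027 on log2(FPKM + 0.1), and from -0.14 to 0.059 with each liver left out. Ranges that crossed 0 with each liver left out were -0.061 to 0.16 for Aldh7a1, -0.46 to 0.067 for Arg2, -0.024 to 0.25 for Bhmt and -0.051 to 0.15 for Pccb. The members' median was -0.32 without plive-Con 2 or plive-Tet1 4, -0.26 without plive-Tet1 3, -0.11 without plive-Tet1 1, -0.09 without plive-Tet1 2 and -0.05 without plive-Con 4. DESeq2 called 5 genes higher and 6 lower, and edgeR with no filter on low counts 33 higher and 99 lower, against 0 and 0. Same-numbered livers share only a number; with the replicate block the calls stayed at 0 and the members' median was -0.19. The causes were not tested.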
